A study of Mus musculus with 12 samples.

Results

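The liver X receptors (LXR) and the genes they control were followed in primary mouse adult fibroblasts (MAFs) treated with thymol, a phenolic monoterpene of thyme and oregano. The 10 genes were taken from a list of LXR receptors and targets. No cut-off on measured values picked them, but the list was chosen with earlier results of these data known. It holds the receptors *Nr1h3* and *Nr1h2*, and the target genes *Abca1*, *Abcg1*, *Apoe*, *Pltp*, *Mylip*, *Lpcat3*, *Smpdl3a* and *Arl4c*. All 10 were among the 10697 genes measured. Cells were wild-type cultures grown out of biopsies of C57BL6/j mice and received 100 µM thymol dissolved in DMSO, or DMSO alone in the same volume, for 24 h. Each group held 6 libraries, numbered 1 to 6. The labels give neither the tissue of the biopsies, nor the age of the animals, nor whether libraries came from separate animals or dishes, so the p-values measure the spread between these libraries, which may be technical.

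LXRα (*Nr1h3*) and LXRβ (*Nr1h2*) are nuclear receptors that sense cholesterol through its oxidized derivatives, the oxysterols. Bound to DNA together with a retinoid X receptor (RXR), they switch on genes that export cholesterol from the cell and remodel membrane lipids. Their action opposes that of SREBP2, the transcription factor that raises cholesterol synthesis and uptake when sterols are scarce. LXR targets are best known in macrophages and liver, and many are also transcribed in fibroblasts.

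Transcripts were counted by QuantSeq 3′ mRNA sequencing, in which each transcript gives about 1 read whatever its length. Levels of different genes therefore need no correction for length, but other differences in counting between genes were not corrected. Levels are log2 CPM, the log2 of a gene's reads relative to the scaled total of its library. The reads of a library over all genes, worked back from the deposited values, numbered from 5435985 to 9049796. Among fibroblast markers, 14 of 16 were measured here (not *Lum* and *Fap*), 2 of them fell past the threshold given below (*Col1a1* and *Col3a1*), and their summed level was 15670 to 16730 CPM with DMSO and 14752 to 15397 CPM with thymol. Among macrophage markers, 17 of 18 were measured (not *Cd163*), 1 rose (*Ctss*) and 2 fell (*Cd14* and *Itgam*), and their summed level was 20041 to 22027 CPM with DMSO and 20244 to 24166 CPM with thymol. The cultures labelled as fibroblasts thus held macrophage transcripts at a high level. Of 6 smooth muscle and pericyte markers 5 were measured, 4 had a lower mean with an unadjusted p-value under 0.05, and 1 passed (*Myh11*, -0.37, limma adjusted p = 0.00696). Their summed level was 10291 to 11705 CPM with DMSO and 8131 to 11693 CPM with thymol. Of 6 skeletal muscle markers 2 were measured (not *Myod1*, *Myog*, *Pax7* and *Ckm*). *Acta1* fell (-0.45, limma adjusted p = 5.03e-05). *Des*, at 58.5 reads in the mean DMSO library, did not pass (-0.45, limma adjusted p = 0.577). In such bulk samples, fewer cells of a type and less RNA per cell cannot be told apart, and the part of any of these cell types in the values below was not tested.

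With thymol, *Abca1* fell and *Apoe* rose, and these were the 2 members of the set past the threshold, an adjusted p-value under 0.05 in limma. Over all genes 238 of 10697 passed (2.22%), 70 of them higher with thymol (0.654%) and 168 lower (1.57%). An unadjusted p-value under 0.05 was reached by 5 of the 10 genes (*Abca1*, *Apoe*, *Abcg1*, *Lpcat3* and *Pltp*), against 11.8% of all genes. Of the 10, 6 had a higher and 4 a lower mean with thymol, and their median log2 fold change was 0.049, against 0.0026 over all genes. The median size of the change regardless of direction was 0.25 for the 10 genes and 0.098 for all genes. For *Abca1* and *Apoe* the 6 thymol values lay wholly on one side of the 6 DMSO values, which was the case for 1.68% of all genes.

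**Figure D1:**
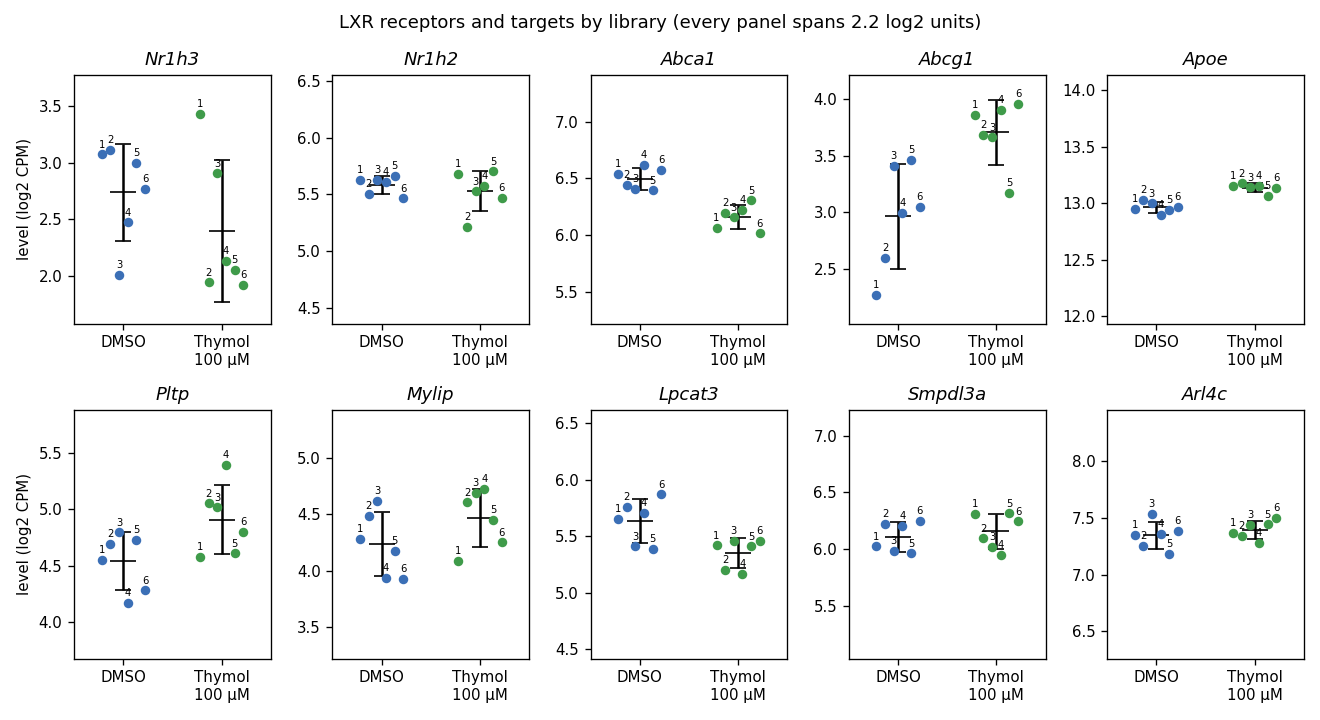
Level of each gene in log2 CPM (vertical axis) in the 6 DMSO and 6 thymol libraries. Points are libraries with their replicate number, bars are the mean ± SD, and every panel spans the same height. The groups do not overlap for *Abca1*, which is lower with thymol, and *Apoe*, which is higher. For *Abcg1*, 5 of the 6 thymol points lie above every DMSO point.

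The promoter of *Abca1* is shown because the gene was called and because its promoter holds the best-described LXR element. The sequence is the 250 bases before the transcription start on chr4:53159896-53160145, minus strand, from RefSeq on GRCm38.p6, written 5′ to 3′. Capitals mark, from left to right, a match to the E-box CACGTG, a recognition motif of helix-loop-helix factors, and a match to a direct repeat of the motif AGGTCA spaced by 4 bases, the textbook element of LXR and RXR, which reads here on the opposite strand.

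Abca1: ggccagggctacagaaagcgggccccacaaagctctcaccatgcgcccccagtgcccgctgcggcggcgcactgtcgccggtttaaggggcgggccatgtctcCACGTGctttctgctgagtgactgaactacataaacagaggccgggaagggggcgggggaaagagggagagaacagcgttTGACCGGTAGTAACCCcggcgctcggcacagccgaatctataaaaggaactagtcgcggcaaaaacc

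The direct repeat begins 67 bases before the start, differs from the consensus at 3 of its 12 fixed letters, and reads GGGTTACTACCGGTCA on the strand of the repeat. With the limit of 2 mismatches set for the search, 0 of the 8 genes with a promoter in the table held a match on either strand, and 3.02% of all 32851 promoters did. With 3 mismatches, a limit chosen after this result, *Abca1* and *Arl4c* held one, as did 21.9% of all promoters, so a match at this limit is common. An exact AGGTCA occurred in 0 of the 8 genes and 16.3% of promoters, and the E-box in *Abca1* and 7.15% of promoters. The searches covered 250 bases before to 50 after each start and both strands, and AGGTCA is itself a part of the repeat. *Abcg1* and *Smpdl3a* had no entry. QuantSeq reads the far end of the transcript, so the values below do not tell which start was used.

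The cholesterol transporters came first in the comparison. ABCA1 moves cholesterol and phospholipid onto lipid-poor apolipoprotein A-I, the initial step of high-density lipoprotein formation, whereas ABCG1 exports sterol to particles that already carry lipid. *Abca1* (chr4:53030787-53159895, minus strand) ranged from 6.39 to 6.62 log2 CPM with DMSO, with a median of 6.49. With thymol it ranged from 6.01 to 6.31, with a median of 6.18. Every thymol library was below every DMSO library, with thymol replicate 5 the highest of its group and DMSO replicate 5 the lowest. Group means (n = 6 each, ± SD) were 6.50 ± 0.095 for DMSO and 6.16 ± 0.11 for thymol. The difference on the log2 scale was -0.34, with an SE of 0.079 (adjusted p = 0.00804 in limma), which is a fall of 20.8%. It rested on 637 reads in the mean DMSO library and 469.7 in the mean thymol library.

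*Abcg1* (chr17:31057675-31117988, plus strand) was much rarer, at 34 to 83 reads in the DMSO and 74 to 92 in the thymol libraries. Its level ranged from 2.27 to 3.46 log2 CPM with DMSO, with a median of 3.02, and from 3.17 to 3.96 with thymol, with a median of 3.77. Of the thymol libraries, 5 of 6 were above every DMSO library, and thymol replicate 5, at 3.17, lay inside the DMSO range. The log2 fold change was 0.74 (SE 0.22, 95% confidence interval 0.31 to 1.18), the largest of the 10 genes, and it narrowly missed the threshold (limma adjusted p = 0.054). *Abcg1* passed in 3 of the 12 fits that left out 1 library. These were the fits without DMSO replicate 3 (0.83), DMSO replicate 5 (0.84) or thymol replicate 5 (0.85). In the other 9 it did not pass, with limma adjusted p-values of up to 0.18. It also passed in 5 of 12 other alternatives, such as a pseudocount of 1 (limma adjusted p = 0.049) and the replicate number as a block (limma adjusted p = 0.047), and its adjusted p-values ranged from 0.022 to 0.76 over all of them. With 10 added before the logarithm its log2 fold change was 0.36, a scale that understates the change of low genes.

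Compared inside each library, *Abca1* was lower relative to *Abcg1* with thymol. Such a change does not show that both genes changed, and *Abcg1* alone missed the threshold. *Abca1* exceeded *Abcg1* by 2.93 to 4.27 log2 units in the DMSO libraries, with a median of 3.58, and by 2.06 to 3.14 in the thymol libraries, with a median of 2.41. In 5 of 6 thymol libraries the difference was below that of every DMSO library. Expressed as a ratio of the levels, there was 11.6 times as much *Abca1* as *Abcg1* with DMSO and 5.48 times with thymol. The mean within-library difference changed by -1.08 (exact two-sided permutation test, p = 0.00649, adjusted p = 0.0195 over the 3 gene pairs compared, n = 6 each). With 10 added before the logarithm it was -0.66, with the same p-value.

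**Figure D2:**
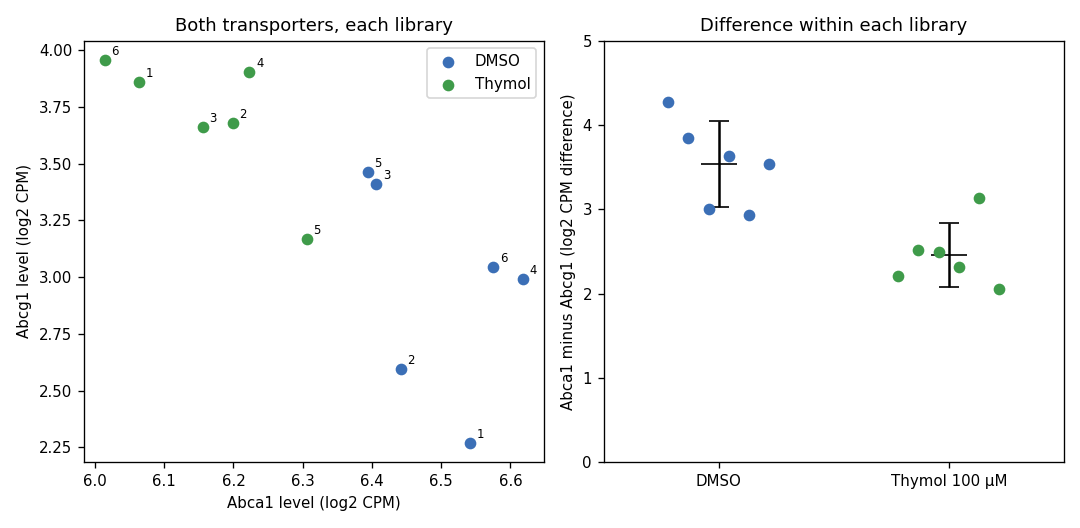
Left, *Abcg1* level (vertical axis) against *Abca1* level (horizontal axis), both in log2 CPM, with 1 point per library and its replicate number. Right, the difference *Abca1* minus *Abcg1* within each library with the mean ± SD of each group. Thymol libraries sit to the upper left, and thymol replicate 5 is the one nearest to the DMSO libraries.

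Apolipoprotein E, made by *Apoe*, is a lipid carrier that accepts exported cholesterol and is secreted in quantity by macrophages. *Apoe* (chr7:19696109-19699188, minus strand) was the most abundant of the 10 genes and the 7th most abundant of all 10697. Its level ranged from 12.90 to 13.03 log2 CPM with DMSO, with a median of 12.96, and from 13.06 to 13.18 with thymol, with a median of 13.15. Every thymol library was above every DMSO library, and the spread within a group was small. Group means (n = 6 each, ± SD) were 12.96 ± 0.047 for DMSO and 13.14 ± 0.039 for thymol. The log2 difference was 0.17, with an SE of 0.042 (adjusted p = 0.0105 in limma), or 12.7% more. It was the smallest change in proportion among the genes with an unadjusted p-value under 0.05, on 56585 reads in the mean DMSO library.

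The phospholipid transfer protein, made by *Pltp*, moves phospholipid between lipoproteins and thereby reshapes high-density lipoprotein. *Pltp* (chr2:164839518-164857711, minus strand) ranged from 4.17 to 4.80 log2 CPM with DMSO, with a median of 4.62, and from 4.58 to 5.39 with thymol, with a median of 4.91. Of the thymol libraries, 4 of 6 were above every DMSO library, replicate 6 by very little. Its log2 fold change of 0.37 had a 95% confidence interval of 0.086 to 0.65 and did not pass over all genes (limma adjusted p = 0.213). The end of *Pltp* overlaps the end of *Ctsa* on the opposite strand, a gene about 4 log2 units more abundant (8.61 with DMSO and 8.70 with thymol), and the strand setting of the counting was not given in the sources used here. If strand was not used, reads of the pair cannot be told apart. *Pltp* relative to *Apoe* changed by 0.20 within libraries (exact two-sided permutation test, p = 0.223, adjusted p = 0.334, n = 6 each), which was within the spread between libraries.

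The receptors differed in abundance more than they differed between groups. *Nr1h2* (chr7:44549616-44553951, minus strand), the broadly expressed receptor, ranged from 5.47 to 5.66 log2 CPM with DMSO, with a median of 5.62, and from 5.21 to 5.70 with thymol, with a median of 5.55. The ranges overlapped, and the log2 fold change was -0.055 (95% confidence interval -0.25 to 0.14, limma adjusted p = 0.914). *Nr1h3* (chr2:91184061-91202834, minus strand), the receptor typical of liver, fat and macrophages, ranged from 2.01 to 3.11 with DMSO, with a median of 2.88, and from 1.92 to 3.43 with thymol, with a median of 2.09. Thymol replicate 1 was the highest of all 12 libraries, while 4 of 6 thymol libraries lay below the DMSO median. On 19 to 68 reads per library, the interval of its change ran from -0.91 to 0.23 around -0.34 (limma adjusted p = 0.728), so that a marked fall and a modest rise both lie within it. The level of *Nr1h3* was 0.139 of that of *Nr1h2* with DMSO and 0.114 with thymol, and the difference within libraries changed by -0.29 (exact two-sided permutation test, p = 0.366, adjusted p = 0.366, n = 6 each).

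The other 4 targets act on receptors, membranes and vesicles, and 0 of them passed the threshold in limma. *Mylip* (chr13:45389742-45412022, plus strand) encodes the ubiquitin ligase IDOL, which marks lipoprotein receptors for degradation. It ranged from 3.93 to 4.62 log2 CPM with DMSO, with a median of 4.23, and from 4.09 to 4.72 with thymol, with a median of 4.53. The groups overlapped, although 5 of 6 thymol libraries lay above the DMSO median, and the log2 fold change was 0.23 (95% confidence interval -0.080 to 0.54, limma adjusted p = 0.624).

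*Lpcat3* (chr6:124663027-124704418, plus strand) encodes an acyltransferase that places polyunsaturated fatty acids into membrane phospholipids. It ranged from 5.39 to 5.87 log2 CPM with DMSO, with a median of 5.68, and from 5.17 to 5.46 with thymol, with a median of 5.41. All 6 thymol libraries lay below the DMSO median, and 4 of 6 DMSO libraries lay above every thymol library. Its log2 fold change of -0.28 (95% confidence interval -0.49 to -0.069) did not pass (limma adjusted p = 0.197). The end of *Lpcat3* overlaps that of *Emg1* on the opposite strand, which changed by 0.097 (limma adjusted p = 0.77).

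*Smpdl3a* (chr10:57794335-57811830, plus strand) encodes a secreted phosphodiesterase related to acid sphingomyelinase, and *Arl4c* (chr1:88673125-88702221, minus strand) encodes a small GTPase that directs vesicles to the plasma membrane. *Smpdl3a* ranged from 5.96 to 6.25 log2 CPM with DMSO and from 5.95 to 6.32 with thymol, with medians of 6.11 and 6.17. *Arl4c* ranged from 7.18 to 7.53 with DMSO and from 7.28 to 7.50 with thymol, with medians of 7.36 and 7.40. Both ranges overlapped almost wholly. The log2 fold changes were 0.049 (95% confidence interval -0.13 to 0.22, limma adjusted p = 0.913) and 0.050 (95% confidence interval -0.081 to 0.18, limma adjusted p = 0.858).

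**Figure D3:**
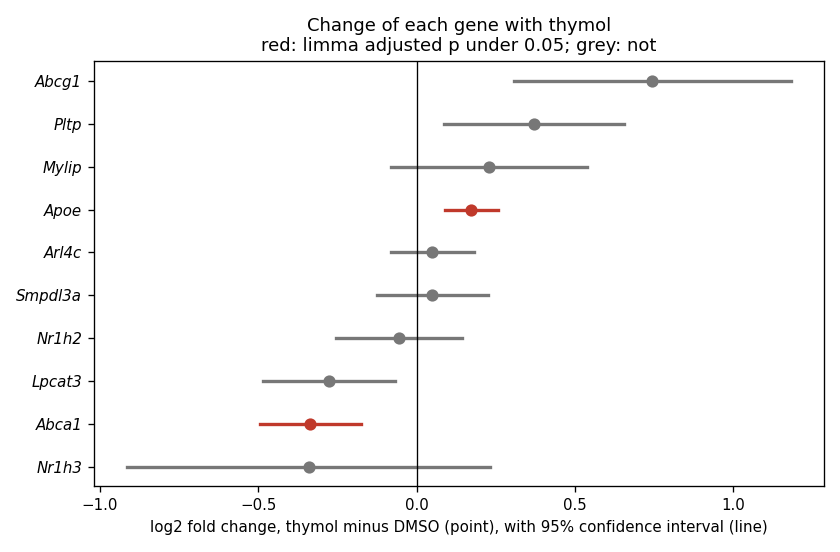
Log2 fold change of each gene, thymol minus DMSO (horizontal axis), as a point with its 95% confidence interval. Red marks the genes past the threshold, *Abca1* at -0.34 and *Apoe* at 0.17. The interval of *Abcg1* lies above 0, and that of *Nr1h3* is wide and includes 0.

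The order of abundance in the DMSO libraries was *Apoe*, *Arl4c*, *Abca1*, *Smpdl3a*, *Lpcat3*, *Nr1h2*, *Pltp*, *Mylip*, *Abcg1* and *Nr1h3*. Neighbours whose library ranges overlapped were *Lpcat3* and *Nr1h2*, *Pltp* and *Mylip*, and *Abcg1* and *Nr1h3*. With thymol, the ranges of *Abca1* and *Smpdl3a* overlapped too, with means of 6.16 and 6.16 log2 CPM, where with DMSO *Abca1* had been above *Smpdl3a* in every library (6.50 and 6.11). The ranges of *Nr1h2* and *Pltp* also overlapped with thymol alone (means of 5.53 and 4.91), and the mean of *Lpcat3* was then below that of *Nr1h2* (5.35 and 5.53).

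Libraries within a group also differed in a patterned way. With group means subtracted, *Pltp* and *Mylip* moved together over the 12 libraries (Pearson r = 0.83), as did *Lpcat3* and *Smpdl3a* (0.75), while *Pltp* and *Smpdl3a* moved in opposite directions (-0.85). These are the 3 largest in size of 45 gene pairs, given as a description. The genes most like *Abca1* in this sense, among 5393 compared, were *Prss23* (r = 0.89), *Eps15l1* (0.88) and *Rap2c* (0.87), and those most like *Apoe* were *Zdhhc20* (0.87), *Cwf19l2* (0.85) and *Cdk7* (0.84). Picked as the highest of 5393 correlations over 12 libraries, these too are given as a description. Of these 6, *Prss23*, a secreted protease gene, also passed the threshold between groups (log2 fold change -0.28, limma adjusted p = 0.00421), as did 2.22% of all genes.

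Odd- and even-numbered libraries were compared separately, because earlier work on these data had found them to differ. The labels do not name a batch. The fall of *Abca1* was -0.27 in odd- and -0.40 in even-numbered libraries, and the rise of *Apoe* was 0.15 and 0.19, in each case without overlap of the 3 thymol and 3 DMSO values. *Pltp* changed by 0.042 in odd- and 0.70 in even-numbered libraries, *Lpcat3* by -0.054 and -0.50, and *Smpdl3a* by 0.23 and -0.13. In a limma fit with an interaction term, the difference between odd- and even-numbered libraries had an unadjusted p-value of 0.0191 for *Pltp*, 0.0296 for *Lpcat3* and 0.0390 for *Smpdl3a*, but 0 of 10697 genes passed after adjustment and 531 had an unadjusted p-value under 0.05. *Nr1h3* changed by 0.10 in odd- and -0.79 in even-numbered libraries, a difference with an unadjusted p-value above 0.05.

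**Figure D4:**
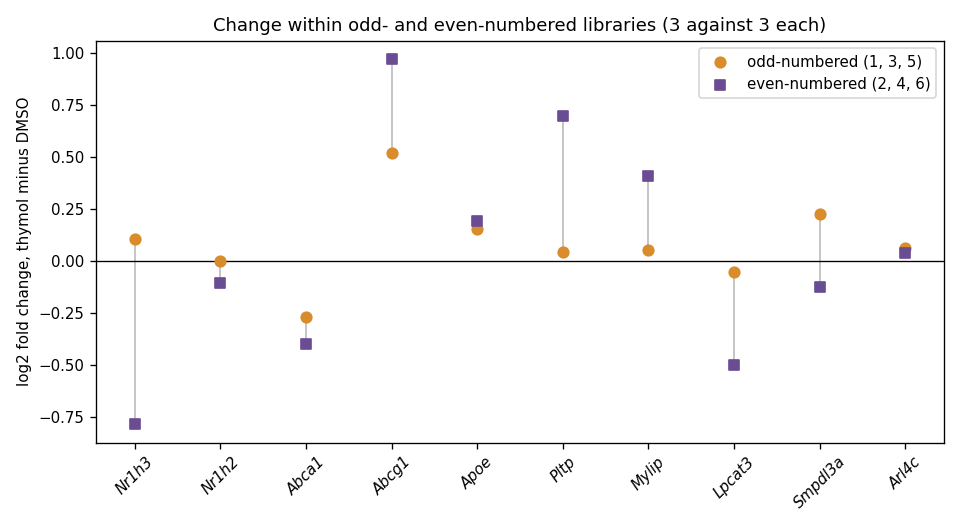
Log2 fold change, thymol minus DMSO (vertical axis), of each gene within the odd-numbered (circles) and the even-numbered libraries (squares), 3 against 3 each. Of the 10 genes, 8 keep their direction in both, *Abca1*, *Abcg1* and *Apoe* among them, while *Nr1h3* and *Smpdl3a* lie on opposite sides of 0.

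Further genes of the pathway were read from lists. Of 19 other LXR targets, 9 were in the table. *Lpl*, which encodes lipoprotein lipase, rose by a log2 fold change of 1.28 (limma adjusted p = 4.17e-24), and *Scd2*, a fatty acid desaturase gene shared with SREBP1, fell by 0.64 on the log2 scale (limma adjusted p = 6.39e-09). The other 7 did not pass, with 6 of them lower. An unadjusted p-value under 0.05 was reached by 7 of the 9, *Lpl* and 6 with a lower mean. Among these 6 were *Scd1* (-0.33, limma adjusted p = 0.146) and *Fasn* (-0.16, limma adjusted p = 0.367). An unadjusted p-value under 0.05 was not reached by *Srebf1*, the gene of SREBP1 and a classical LXR target (-0.28, limma adjusted p = 0.472). Nor was it by *Mertk*, a receptor for dying cells (0.15, limma adjusted p = 0.457). The median of the 9 was -0.23, against 0.0026 over all genes.

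Among enzymes that make oxysterol ligands, *Ch25h*, which makes 25-hydroxycholesterol, changed by -0.24 (limma adjusted p = 0.487), and *Cyp27a1* by 0.23 (limma adjusted p = 0.872). Of 15 RXR partners and coregulators, 14 were measured and 0 passed in limma, with *Rxrb* as the one of 14 at an unadjusted p-value under 0.05 (0.22, adjusted p = 0.413). *Rxra* changed by -0.079 (95% confidence interval -0.28 to 0.12).

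Of 18 genes of cholesterol trafficking and efflux outside the list of 10, 13 were measured and 0 passed in limma, where 3 had an unadjusted p-value under 0.05. *Cav1*, the gene of caveolin-1, came nearest (-0.24, limma adjusted p = 0.126), and it passed without DMSO replicate 1 (-0.30), without thymol replicate 5 (-0.30) or with the replicate number as a block. *Soat1*, which esterifies cholesterol for storage, changed by 0.18 (limma adjusted p = 0.151). *Scarb1*, a receptor for high-density lipoprotein, changed by 0.028 (95% confidence interval -0.17 to 0.23), and the lysosomal exporter gene *Npc1* by 0.047 (-0.093 to 0.19). The median of the 13 genes was 0.067. Of 24 paralogues of the 10 genes, 15 were measured and 0 passed in limma, with 2 at an unadjusted p-value under 0.05. *Lpcat2* was the one with the smallest p-value (-0.34, limma adjusted p = 0.137).

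**Figure D5:**
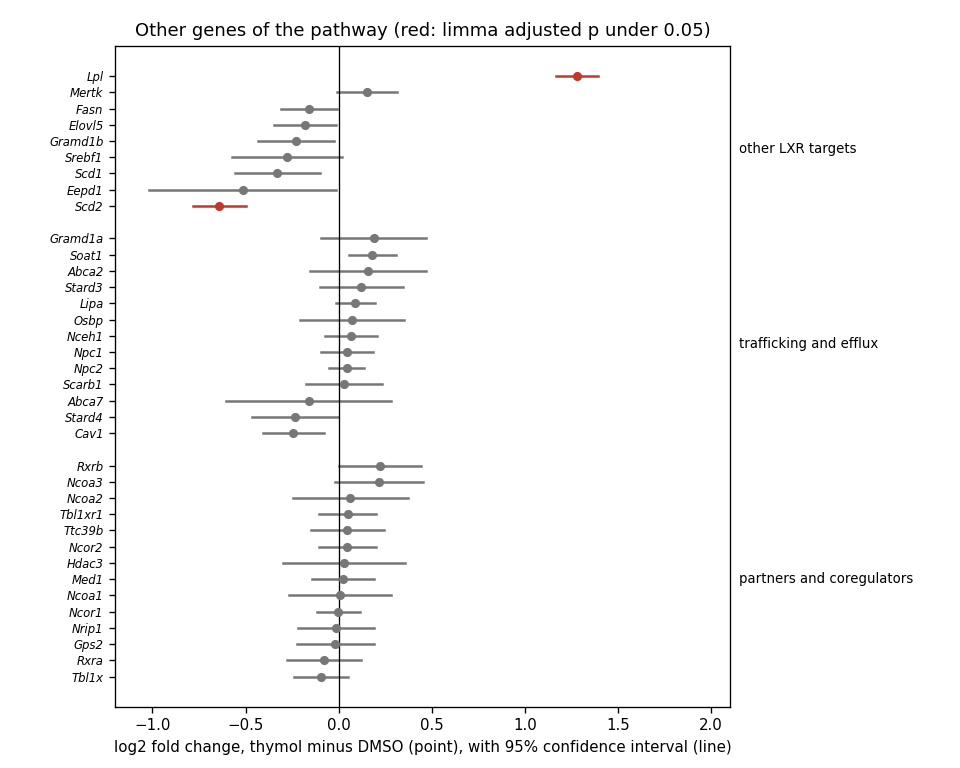
Log2 fold change, thymol minus DMSO (horizontal axis), with 95% confidence intervals for the measured genes of 3 lists. Red marks genes past the threshold. *Lpl* is at 1.28, far to the right of the others, and *Scd2*, at -0.64, is the gene past the threshold on the lower side.

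On the SREBP2 side, target genes of cholesterol synthesis and its control fell with thymol: *Hmgcs1* (-0.48), *Fdps* (-0.56), *Cyp51* (-0.28), *Sqle* (-0.35) and *Insig1* (-0.65). Their limma adjusted p-values lay between 8.58e-07 for *Hmgcs1* and 0.0275 for *Insig1*, and in each of them every thymol library was below every DMSO library. *Sqle* no longer passed without thymol replicate 6 (-0.31), nor *Insig1* without DMSO replicates 1 (-0.61), 2 (-0.65) or 5 (-0.64), or without thymol replicate 2 (-0.47). Without the mean-variance trend, *Cyp51*, *Sqle* and *Insig1* did not pass (limma adjusted p = 0.064, 0.067 and 0.16). Nor did these 3 pass in the odd- or the even-numbered libraries alone, or *Fdps* in the even-numbered ones (limma adjusted p = 0.16). *Vldlr* and *Lrp8*, which encode receptors that IDOL degrades, changed by -0.019 (95% confidence interval -0.32 to 0.28) and 0.11 (-0.18 to 0.40). Other genes of their list are not reported here, so these values do not speak for the receptors that IDOL degrades as a whole.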

How the data were processed

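For 12 libraries, total RNA was sequenced with the QuantSeq FWD 3′ kit. Per the labels and the study's methods, the authors aligned reads to GRCm38 with STAR 2.5.3, counted them with HTSeq-count 0.6.1, kept genes with enough reads in at least 6 samples and applied TMM scaling. The deposited values, made by the authors, are log2 CPM with a prior count. Whole reads were recovered from their equal steps (below 200 reads, 100% of values came within 0.02 of an integer), and the prior equalled 1.96 reads in an average library. Reads are PCR products, so depth speaks of counting error only.

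The values are log2, so limma 3.58.1 in R 4.3.3 (eBayes with trend, the 2 groups and no covariate) was fitted to all 10697 genes and 12 libraries, with two-sided p-values adjusted by the Benjamini-Hochberg method. The fit was tested on simulated data with 200 changed genes. It recovered 49 of 100 changes of 0.5 on the log2 scale and 92 of 100 changes of 1, with 5 false calls. Smaller changes were not simulated. Differences within a library were tested by exact permutation. Alternatives covered the variance model, the test, pseudocounts, a filter, scaling, pairing, left-out libraries and odd or even library number.

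The members and lists were chosen with earlier results of these data known. Named genes are the 10 members, in each list every gene past the threshold or else the one with the smallest p-value, and for each called member the 3 genes most correlated with it after group means were subtracted, among genes with a mean of at least 5. Some genes of the sterol lists are not reported here. Other genes of a list named beside these were chosen after their values were seen. Gene positions are from GENCODE vM21 on GRCm38 and promoters from RefSeq on GRCm38.p6, in which 8 of the 10 genes were matched. Of the other marker lists, 1 of 6 adipocyte, 2 of 6 endothelial, 1 of 6 keratinocyte, 0 of 6 lymphocyte and 0 of 6 mast cell genes were in the table, of which 0 passed in limma and 1, an adipocyte gene, had an unadjusted p-value under 0.05.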

Additional observations from a re-analysis of the deposited data

Results flagged for a closer look

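Dixon's criterion (95% level) was applied to the 10 members, the 12 further genes that the rule for lists picked, and the read totals. The genes picked by correlation were left out. The criterion asks how far the highest or lowest library stood from the next one, relative to the whole range. Of 46 groups so tested, 3 held a library past that limit, and chance gives about 1 group in 20. *Apoe* in thymol replicate 5 was 13.06 log2 CPM, against 13.13 in the next lowest thymol library. *Insig1* in thymol replicate 2 was 2.82 log2 CPM, against 3.71 in the next lowest. Thymol replicate 5 was also the deepest thymol library, with 9049796 reads against 6585162 in the next. In that library *Apoe* and *Abcg1* were the lowest and *Abca1* the highest of the thymol group, so that all 3 lay nearest to DMSO there, and the part of depth in this was not tested. Without thymol replicate 5, the log2 fold change was 0.19 for *Apoe*, 0.85 for *Abcg1* and -0.36 for *Abca1*.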

How the results depend on the processing

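*Abca1* and *Apoe* passed in all 12 fits that left out 1 library, with log2 fold changes of -0.36 to -0.31 and 0.16 to 0.19. Among the 13 other alternatives, *Abca1* passed in 9 and *Apoe* in 10, always in the same direction. Without the mean-variance trend 0 members were higher and 0 lower past the threshold (12 and 45 of all genes, 1145 at an unadjusted p-value under 0.05). The exact permutation test per gene called 0 members and 0 genes in either direction (1175 unadjusted), since its smallest p-value, which *Abca1* and *Apoe* reached, is 0.00216. The odd-numbered libraries alone gave 0 and 0 members (21 and 49 of all genes), and the even-numbered ones 2 higher, *Apoe* and *Pltp*, and 0 lower (55 and 112 of all genes), with 3 libraries a group. With library weights, pseudocounts of 1 or 10, quantile normalization or the replicate block, 2 members were higher, *Apoe* and *Abcg1*, and 1 lower, where 73 to 104 of all genes were higher and 166 to 228 lower. With a library left out, 1 to 2 members were higher (47 to 88 of all genes) and 1 lower (123 to 197). Reversals concerned members that were not called: *Nr1h3* at 0.10 in odd-numbered libraries, *Smpdl3a* at -0.13 in even-numbered ones, and *Nr1h2*, which ran from -0.090 to 0.0083 with a library left out, the latter without thymol replicate 2. Within libraries, the *Abca1* minus *Abcg1* change was -0.79 in odd- and -1.37 in even-numbered libraries, with p = 0.3 and 0.1 in the exact permutation test, whose smallest p-value for 3 against 3 is 0.1. In the odd-numbered ones, the *Nr1h3* minus *Nr1h2* change was 0.11 and the *Pltp* minus *Apoe* change -0.11. Same-numbered libraries of the 2 groups did not deviate together throughout (correlations of -0.051 to 0.27 over 5394 genes), and 2 of 6 thymol libraries correlated best with their own number. The labels do not say whether the number pairs libraries. Low correlations cannot decide it, because counting error also lowers them. The block gave 332 genes in place of 238. With 3 mismatches, 2 members held a direct repeat. For *Abcg1* and *Nr1h3*, under 100 reads per library limit the precision.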
